A study of Mus musculus with 3 samples.

Results

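Matrix metalloproteinases (MMPs), ADAMs (membrane-anchored metalloproteinases with a disintegrin domain), ADAMTS enzymes (secreted relatives with thrombospondin repeats), ADAMTS-like proteins and the tissue inhibitors of metalloproteinases (TIMPs) were examined in sorted bone marrow cells that carry a nestin reporter. The members were all mouse genes whose symbol is Mmp, Timp, Adam, Adamts or Adamtsl followed by a number and at most 1 letter, and that had at least 4 probesets with exactly 1 gene symbol in the annotation of the array. This gave 81 genes of 18865 on the array that met the same minimum, namely 23 MMP, 4 TIMP, 30 ADAM, 19 ADAMTS and 5 ADAMTS-like genes. Adam34l (2 probesets), Adam6a (3 probesets) and Adam6b (3 probesets) fell below the minimum and were not tested.

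There was 1 group of 3 Affymetrix exon-level arrays and no second group. Each array held amplified RNA of freshly isolated C57BL/6 marrow cells sorted by flow cytometry for GFP, which in these mice is driven by the promoter of the nestin gene. All arrays share strain, reporter and sort, and the age of the mice and the number pooled are not stated in the labels, so the p-values below measure the spread between 3 samples that may be technical. As a check of the label, Nes itself had 5.97, 5.21 and 5.56 on the arrays, around the background threshold described below. Nes was not called (adjusted p = 0.757, limma). Of the perivascular stroma markers 12 of 12 were called, where 50.6% of all genes were. That list was chosen with earlier results of these data known, so it is no check of the label. A bulk measurement cannot tell fewer cells of a type apart from less RNA per cell.

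MMPs are made as inactive precursors and cut collagens, gelatin and other matrix proteins once their propeptide is removed; in bone they take part in remodelling of the collagen matrix. ADAMs mostly release the extracellular parts of membrane proteins such as growth factors and Notch, while ADAMTS enzymes cut large proteoglycans, trim procollagens or act on single plasma and microfibril proteins. TIMPs bind the active site of these enzymes, each with its own preference, and ADAMTS-like proteins resemble the ancillary part of ADAMTS enzymes but have no protease domain, so not every member is a protease or an inhibitor.

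Each member was compared with genes that marrow should lack. The first background was 355 olfactory, vomeronasal and bitter taste receptor genes, and an array's threshold was their 95th percentile (5.40, 5.66 and 5.64 for arrays 1, 2 and 3, on the log2 scale of the deposited values). The margin of a gene is the mean over arrays of its value minus that threshold, and a gene was called when limma gave an adjusted p below 0.05. Of the 81 members 31 were called, which is 38.3% where 50.6% of all 18865 genes were called. A stricter background of 71 genes of liver, pancreas, eye, testis, muscle, skin, kidney, brain and other tissues called 21 members, or 25.9%, where 29.1% of all genes were called. Of the chemosensory genes themselves 9 were called. Of the 71 other-tissue genes 8 (11.3%) were called over the chemosensory background, with margins up to 1.07. The 10 members called over that background only had margins from 0.44 to 1.46, so those calls are less firm. Both shares of members lie below those of all genes, and the median margin was 0.12 for the members and 0.50 for all genes. Without the 18 mainly germ-line ADAM genes, the first background called 30 of 63 members (47.6%), still below the share of all genes. The stricter background called 21 of the 63 (33.3%), above the 29.1% of all genes. The 18 genes, of which 0 passed the stricter background, were taken out of the members only. No such genes were taken out of the 18865, so the 2 shares are not like for like. Counts of calls in the groups and lists below are to be read beside the shares of all genes, 50.6% and 29.1%. Levels of different genes are not ranked here, since probes differ in affinity.

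**Figure D1:**
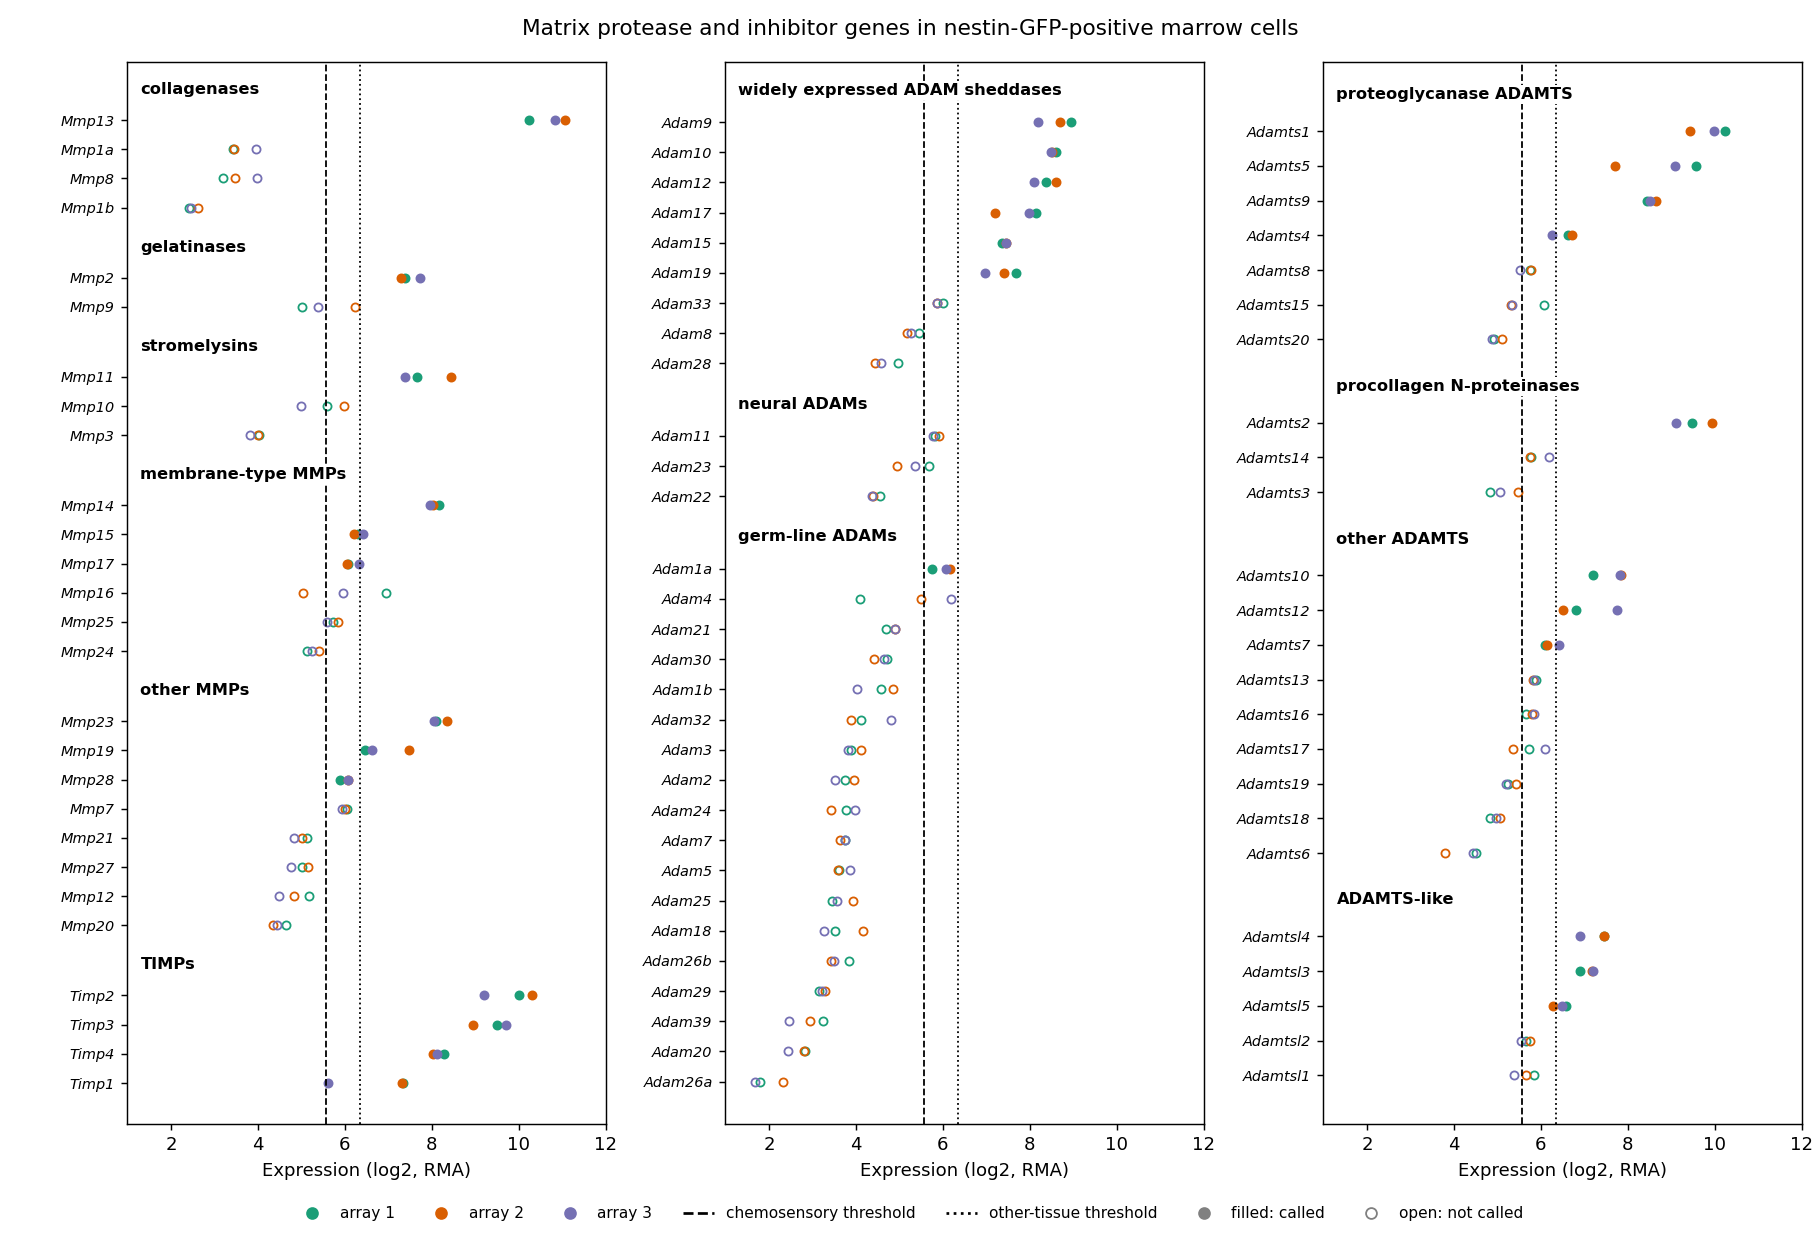
Expression of all 81 member genes (x axis, log2 RMA value) by functional group, with 1 point for each of the 3 arrays, filled where the gene was called above the chemosensory background and open where it was not. The dashed and dotted lines are the mean thresholds of the chemosensory and other-tissue backgrounds. All 4 TIMP genes were called, and 1 of the 18 germ-line ADAM genes was.

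Among the interstitial collagenases, which cut fibrillar collagen across its triple helix, the signal was that of Mmp13. Mmp13, known from hypertrophic cartilage and osteoblasts, had 10.24, 11.07 and 10.82 on arrays 1, 2 and 3. All 3 arrays lay far above the threshold, by a mean of 5.14 ± 0.20 (SE; adjusted p = 2.90e-07, limma), and all 12 of its probesets exceeded the probeset background on every array. Mmp1a (3.43, 3.44 and 3.96), Mmp1b (2.42, 2.61 and 2.46) and Mmp8, the neutrophil collagenase (3.20, 3.47 and 3.97), stayed below the threshold on all arrays.

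Mmp13 is 1 of 10 MMP genes that follow each other without another protein-coding gene between them on chromosome 9 in the RefSeq gene table of assembly GRCm38.p6. In that order they are Mmp13, Mmp12, Mmp1b, Mmp3, Mmp1a, Mmp10, Mmp8, Mmp27, Mmp20 and Mmp7. Mmp13 was called and the 9 others were not, with means from 2.50 for Mmp1b to 5.99 for Mmp7. Mmp7, the matrilysin gene, lay just above the threshold on all arrays (6.04, 6.00 and 5.93; margin 0.42 ± 0.19, SE) but missed the call (adjusted p = 0.0509, limma), and 0 of its 7 probesets passed the probeset background on all arrays.

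**Figure D2:**
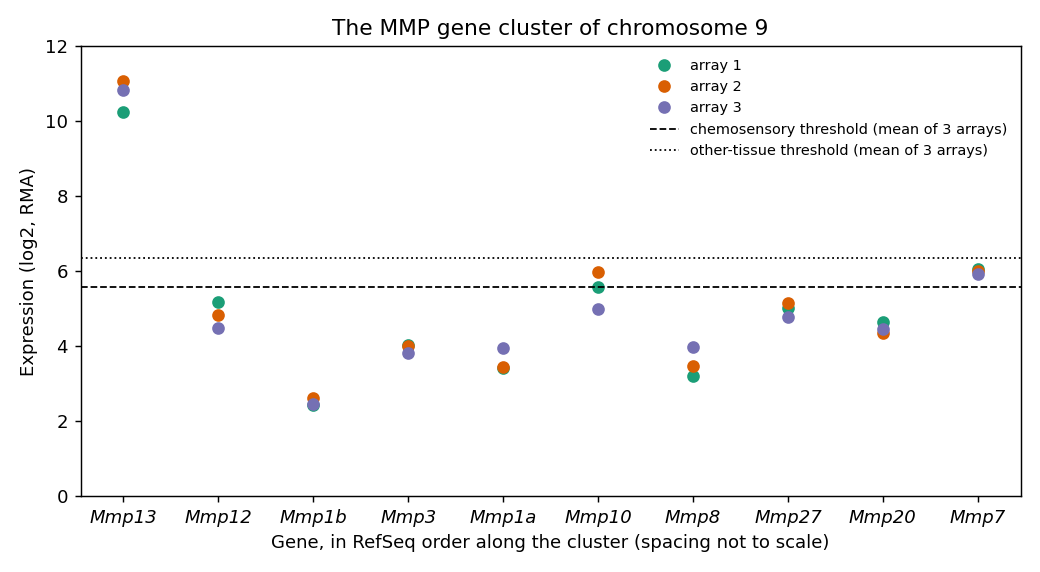
The 10 neighbouring MMP genes of chromosome 9 in RefSeq order (x axis, spacing not to scale) against expression (y axis, log2 RMA), 1 point per array. Mmp13, at the end of the run, sits between 10.24 and 11.07, while the other 9 genes have means between 2.50 and 5.99, at or below the region of the background thresholds.

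The promoters of these neighbours are shown because the genes lie side by side and differ in signal. Each sequence is the 250 bases before the RefSeq start (GRCm38.p6, plus strand, 5′ to 3′), and capitals mark matches to 3 motifs searched on both strands. The letters searched for AP-1 were TGANTCA. For RUNX factors the letters AACCACA were used. The TATA box was searched as TATAAA. Positions are counted from -1, the base before the start, and no matches overlap in the sequences printed.
Mmp13, chr9:7272264-7272513: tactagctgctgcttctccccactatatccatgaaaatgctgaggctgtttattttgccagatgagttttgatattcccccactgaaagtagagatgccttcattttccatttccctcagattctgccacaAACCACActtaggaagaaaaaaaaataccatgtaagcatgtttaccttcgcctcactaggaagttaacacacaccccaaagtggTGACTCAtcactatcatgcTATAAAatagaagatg
Mmp3, chr9:7445572-7445821: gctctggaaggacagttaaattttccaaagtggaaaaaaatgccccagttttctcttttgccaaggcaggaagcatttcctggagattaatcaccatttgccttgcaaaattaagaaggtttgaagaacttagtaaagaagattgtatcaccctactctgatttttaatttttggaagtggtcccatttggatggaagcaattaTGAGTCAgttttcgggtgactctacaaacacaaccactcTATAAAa
Mmp1a, chr9:7463891-7464140: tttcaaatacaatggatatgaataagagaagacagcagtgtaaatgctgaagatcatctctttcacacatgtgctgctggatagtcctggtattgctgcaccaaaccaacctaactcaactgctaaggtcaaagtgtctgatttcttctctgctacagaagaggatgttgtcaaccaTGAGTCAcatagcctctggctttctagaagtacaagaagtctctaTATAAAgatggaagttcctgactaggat
Mmp10, chr9:7502092-7502341: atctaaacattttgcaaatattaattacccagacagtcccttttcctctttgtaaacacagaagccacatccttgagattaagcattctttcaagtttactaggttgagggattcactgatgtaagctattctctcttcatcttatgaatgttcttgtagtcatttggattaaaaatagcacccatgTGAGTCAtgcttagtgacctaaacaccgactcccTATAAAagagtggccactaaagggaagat
The AP-1 letters begin at -35 in Mmp13, -46 in Mmp3, -73 in Mmp1a and -63 in Mmp10, and each has the TATA letters between them and the start. The RUNX letters of Mmp13 begins at -119, and the other 3 windows printed hold no match to them.

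Over the whole run of neighbours, the AP-1 letters were found for 8 of 10 genes and the TATA letters for 7, and the same 7 genes, Mmp13 among them, had both in 1 window. AP-1 letters were present in 6.75% of all 32851 promoter windows of this length, RUNX letters in 4.40%, TATA letters in 12.4%, and AP-1 with TATA letters in 1.21%. Those are shares of windows. Counted by gene, as for the run, AP-1, RUNX and TATA letters were found for 6.96%, 4.27% and 11.1% of tested genes with a window. The RUNX letters were found for 3 genes of the run, Mmp13, Mmp27 and, in a second window without the other motifs, Mmp7. Mmp13 had the 1 window of 55 member windows with all 3 motifs, as 26 of all 32851 windows did. These are matches of letters, not binding sites. Of the 9 neighbours without a call, Mmp8 and Mmp27 had neither the AP-1 nor the TATA letters and Mmp12 had no TATA letters.

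Among the 2 gelatinases, Mmp2, an enzyme that stromal cells make and that is activated at the cell surface by the product of Mmp14, had 7.37, 7.29 and 7.73 on the 3 arrays. The arrays were close together and the margin was 1.90 ± 0.19 (SE; adjusted p = 2.53e-05, limma). Mmp9, the gelatinase of neutrophils and osteoclasts, had 5.02, 6.22 and 5.37, above the threshold on array 2 alone, and was not called (adjusted p = 0.850, limma). Beside it, 3 of 14 macrophage and osteoclast markers (21.4%) and 8 of 12 neutrophil markers (66.7%) were called, where 50.6% of all genes were. Over the other-tissue background limma called 0 and 3 of these markers, and 0 and 4 had an unadjusted p below 0.05. The 3 neutrophil markers are 25% of their list, below the 29.1% of all genes. The log2 values of the neutrophil list summed to 79.0, 80.6 and 84.3 on the 3 arrays and those of the macrophage and osteoclast list to 75.3, 73.6 and 78.9. Of the neutrophil markers 3 of 12 were highest on array 2 and 6 on array 3. Of the macrophage and osteoclast markers 4 of 14 were highest on array 2 and 7 on array 3. Fcnb (5.92, 7.19 and 6.21) was highest on array 2, and Mpo (6.59, 8.28 and 9.69), Lyz2 (5.93, 6.72 and 8.03) and Mrc1 (8.39, 4.44 and 9.15) on array 3. The neutrophil list ran from S100a8 at 9.81 ± 0.44 (SD, n = 3), which was called, to Cxcr2 at 4.95 ± 0.25, which was not, and Csf3r, Lcn2 and Itgam were not called either. The part of these cells in the values of Mmp8 or Mmp9 was not tested.

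In the stromelysin group, Mmp11, a furin-activated enzyme described in stromal fibroblasts, had 7.67, 8.45 and 7.37, with array 2 the highest and all arrays above the threshold (margin 2.26 ± 0.23, SE; adjusted p = 3.07e-05, limma). Mmp10 lay around the threshold (5.58, 5.97 and 5.002), and Mmp3 below it (4.03, 4.01 and 3.81). Neither was called.

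Of the 6 membrane-bound MMPs 3 were called. Mmp14, the main collagenase of the cell surface and activator of the Mmp2 product, had 8.17, 8.02 and 7.96, a spread of 0.11 (SD, n = 3) around a margin of 2.48 ± 0.19 (SE; adjusted p = 5.73e-06, limma). Mmp15 (6.29, 6.21 and 6.42) and Mmp17 (6.08, 6.05 and 6.33) were called with margins of 0.74 and 0.59 and did not pass the other-tissue background. Mmp16, another membrane-bound enzyme, had 6.94, 5.03 and 5.96, so that 1 array lay below the threshold, and it was not called (adjusted p = 0.249, limma). Without array 2, its lowest array, Mmp16 was called, with a margin of 0.93 (adjusted p = 0.00302, limma). It was not called without array 1 (margin -0.15) or without array 3 (margin 0.46). The leukocyte MMP gene Mmp25, at 5.72 ± 0.12 (SD, n = 3), and Mmp24, at 5.26 ± 0.14, were not called.

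The remaining MMPs gave 3 calls among 8 genes. Mmp23, a membrane-anchored enzyme with an unusual cysteine-rich domain, had 8.09, 8.34 and 8.04, and 11 of its 15 probesets passed the probeset background on every array. Mmp19 had 6.46, 7.49 and 6.62, with array 2 the highest, and Mmp28 (epilysin) had 5.89, 6.08 and 6.08. Mmp23 passed both backgrounds (margin 2.59 ± 0.18, SE, over the first; adjusted p = 3.73e-06, limma), while Mmp19 and Mmp28 passed the first only. The macrophage elastase gene Mmp12 (5.18, 4.84 and 4.48), Mmp21, Mmp27 and the enamel protease gene Mmp20 (4.64, 4.36 and 4.45) were below the threshold on all arrays.

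All 4 inhibitor genes were called, and 3 of them passed the other-tissue background as well. Timp2, whose product both inhibits MMPs and takes part in the activation of the Mmp2 product, had 10.01, 10.29 and 9.19. Timp3, which binds to the matrix and also inhibits ADAM17 and ADAMTS enzymes, had 9.50, 8.95 and 9.71. Every array of both genes lay well above the thresholds, with margins of 4.27 ± 0.25 (SE) for Timp2 and 3.82 ± 0.22 for Timp3 (adjusted p = 1.50e-06 and 1.36e-06, limma). Timp4, the inhibitor with the most restricted tissue distribution, had 8.28, 8.03 and 8.13, within a narrow range (margin 2.58 ± 0.19, SE; adjusted p = 4.96e-06, limma).

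Timp1, a secreted inhibitor induced by cytokines and growth factors, differed between the arrays. It had 7.33 and 7.31 on the first 2 arrays and 5.61 on array 3, where it lay just under the threshold of 5.64. The margin of 1.18 ± 0.35 (SE) was called (adjusted p = 0.0112, limma), but the call was lost without array 1 (margin 0.81, adjusted p = 0.131, limma), and 0 of its 7 probesets passed the probeset background on all arrays. Reck, the gene of a membrane-anchored MMP inhibitor outside the rule, had 7.92, 7.54 and 8.33 and was called (adjusted p = 1.50e-05, limma).

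The widely expressed ADAM genes gave 6 calls among 9, all 6 also above the other-tissue background. Adam10 and Adam17 encode the main sheddases of the cell surface, which cut Notch and tumour necrosis factor among other substrates. Adam10 had 8.61, 8.52 and 8.48, nearly the same value on each array, while Adam17 had 8.13, 7.20 and 7.99 and was lowest on array 2. Both lay above the thresholds on all arrays, by 2.97 ± 0.19 (SE) for Adam10 and 2.21 ± 0.25 for Adam17 (adjusted p = 2.03e-06 and 5.26e-05, limma).

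Adam9 (8.95, 8.70 and 8.19), Adam12, a gene of mesenchymal and muscle precursors (8.38, 8.60 and 8.09), Adam15 (7.36, 7.46 and 7.45) and Adam19 (7.68, 7.42 and 6.97) made up the other calls. Their margins ran from 1.79 for Adam19 to 3.05 for Adam9. In Adam12 24 of 29 probesets passed the probeset background on every array. Adam33 had 6.01, 5.86 and 5.87, above the threshold on all arrays, but missed the call (adjusted p = 0.0940, limma) although 10 of its 33 probesets passed the probeset background on every array. Adam8, known from leukocytes and osteoclasts (5.29 ± 0.14, SD, n = 3), and Adam28, known from lymphocytes (4.66 ± 0.27), were not called. Beside these, 4 of 12 pan-leukocyte markers were called (33.3%, compared with 50.6% of all genes). Over the other-tissue background 2 were (16.7%, compared with 29.1%). Those 2 were Arhgdib (9.15, 9.60 and 9.60) and Lcp2 (8.98, 8.48 and 7.96), and Rac2 and Hcls1 passed the first background only. The 8 without a call included Ptprc, the defining leukocyte gene, with 4.54, 4.37 and 5.14, below the threshold on all arrays. The log2 values of the leukocyte list summed to between 67.6 and 72.3, and their part in the values of Adam8 and Adam28 was not tested.

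Of the 3 ADAMs best known from neurons, Adam11, Adam22 and Adam23, which are thought to act as adhesion receptors rather than proteases, limma called 0, with 0 also at an unadjusted p below 0.05. Adam11 had 5.83, 5.91 and 5.78, above the threshold on all arrays by a mean of 0.27, and Adam22 had 4.56, 4.39 and 4.37. Of the 18 ADAM genes known mainly from testis or epididymis 1 was called. It was Adam1a, with 5.76, 6.17 and 6.08 and a margin of 0.44 ± 0.18 (SE; adjusted p = 0.0398, limma), and the call was lost without array 2 (adjusted p = 0.178) or array 3 (adjusted p = 0.130). The other 17 had means from 1.93 for Adam26a to 5.26 for Adam4.

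Adam4 had the widest range of all members, with 4.09, 5.49 and 6.19, and crossed the threshold on array 3 only. Several of the germ-line genes are close copies of each other. In the annotation 13 probesets named both Adam25 and Adam39 and 5 named both Adam26a and Adam26b. Those probesets were not used, and the values of these genes stay uncertain where the remaining probes match a copy. In RefSeq order Adam9 directly follows Adam18, Adam3, Adam5 and Adam32 on chromosome 8, and it was the 1 called gene of the 5.

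Proteoglycan-cutting ADAMTS genes gave 4 calls among 7. Adamts1, which cuts versican and aggrecan, had 10.22, 9.44 and 9.99. Adamts5, the gene of the main aggrecanase of cartilage, had 9.56, 7.70 and 9.09, and Adamts9 had 8.44, 8.66 and 8.51. These 3 genes lay above both thresholds on every array, with margins of 4.32 ± 0.23 (SE), 3.22 ± 0.36 and 2.97 ± 0.18, and 35 of the 56 probesets of Adamts9 passed the probeset background on all arrays. Adamts4, another aggrecanase gene, had 6.62, 6.71 and 6.26 and passed the first background only (adjusted p = 0.00167, limma). Adamts8, Adamts15 and Adamts20 were not called, with means of 5.68, 5.57 and 4.97.

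Adamts1 and Adamts5 are direct neighbours on chromosome 16 in RefSeq order. Both were called and both were lowest on array 2. Adamts15 and Adamts8, neighbours on chromosome 9, were both near the threshold, with margins of 0.0054 and 0.12. In all, 27 of the 81 members stood in 7 runs of neighbouring members.

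The procollagen N-proteinases remove the amino-terminal propeptide of fibrillar procollagens. Adamts2, which acts on type I collagen in skin and bone, had 9.47, 9.94 and 9.11, well above both thresholds (margin 3.94 ± 0.21, SE; adjusted p = 1.04e-06, limma), with 21 of 26 probesets above the probeset background on every array. Adamts14 (5.78, 5.76 and 6.18) lay above the threshold on all arrays and missed the call (adjusted p = 0.103, limma). Adamts3, linked to lymphatic growth through processing of a vascular growth factor, lay below it (4.84, 5.48 and 5.06). Of the collagen genes cut by these enzymes, Col1a1, Col1a2, Col2a1 and Col3a1 were all called, with Col1a1 at 10.10, 8.19 and 8.65.

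Among the remaining 9 ADAMTS genes 3 were called. Adamts10, whose product binds fibrillin microfibrils, had 7.20, 7.84 and 7.82 and passed both backgrounds (margin 2.05 ± 0.19, SE; adjusted p = 1.58e-05, limma). Adamts12 had 6.81, 6.51 and 7.76 and Adamts7 6.09, 6.13 and 6.42. Both encode enzymes that cut cartilage oligomeric matrix protein, and both passed the first background only (adjusted p = 0.000676 and 0.00864, limma). The call of Adamts7 was lost without array 3 (adjusted p = 0.0564). Adamts13, the protease of von Willebrand factor, had 5.90, 5.82 and 5.85 and was not called (adjusted p = 0.142, limma), nor were Adamts16, Adamts17, Adamts18, Adamts19 and Adamts6, the last at 4.25 ± 0.40 (SD, n = 3).

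ADAMTS-like genes gave 3 calls among 5. Adamtsl4, linked to fibrillin microfibrils of the eye, had 7.45, 7.44 and 6.90, and Adamtsl3 had 6.89, 7.18 and 7.20. Both passed both backgrounds, with margins of 1.70 ± 0.21 (SE) and 1.52 ± 0.18 over the first. Adamtsl5 (6.59, 6.28 and 6.49) passed the first only. Adamtsl2 (5.65, 5.75 and 5.54) and Adamtsl1 (5.84, 5.65 and 5.39) lay around the threshold, and 0 of the 67 probesets of Adamtsl1 passed the probeset background on all arrays.

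The probesets behind a gene value were examined one by one, because a median can hide a signal from part of a transcript. The probeset background was the 95th percentile of the 2111 probesets of the chemosensory genes on the same array, and 3.69% of those probesets exceeded it on all arrays, compared with 24.8% of all probesets with 1 symbol. The median share per gene was 43.6% for the 31 called members and 4.22% for the 50 that were not called. At least 50% of probesets passed in 13 called members. The highest share among members without a call was the 30.3% of Adam33. These shares come from the same arrays as the calls and are a description of how the signal was spread over each gene.

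**Figure D3:**
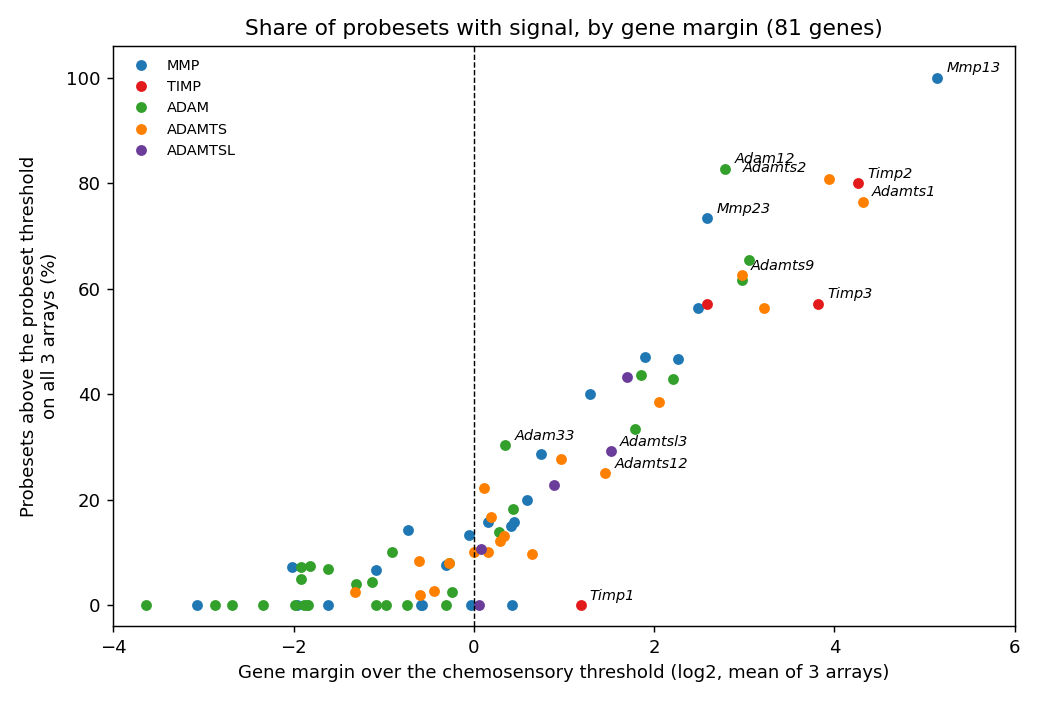
Share of a gene's probesets above the probeset background on all 3 arrays (y axis, percent) against the gene's margin over the chemosensory threshold (x axis, log2, mean of 3 arrays), 1 point per member, coloured by family. Mmp13 stands at 100% and Timp1 at 0% in spite of a margin of 1.18.

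Most members differed little between the arrays. The median range over the 3 arrays was 0.51 for the called members and 0.54 for all called genes. Of the called members 2, Adamts5 and Timp1, had a range of at least 1.5, which is 6.45%, compared with 5.07% of all called genes. The lowest array, after removal of each array's median deviation, was array 1 for 10 called members, array 2 for 11 and array 3 for 10.

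Adamts5 was lower on array 2, with deviations of 0.75, -1.09 and 0.34 on arrays 1, 2 and 3, and 13 of its 16 probesets were lowest on that array. Timp3 was lowest there too, in 12 of 14 probesets, with a gene-level deviation of -0.44. Of 16 endothelial markers 12 (75%) were called, where 50.6% of all genes were. Over the other-tissue background 3 of the 16 (18.8%) were called, where 29.1% of all genes were, and 6 had an unadjusted p below 0.05. By deviation, 16 of the 16 were lowest on array 2, which widens the spread that limma measures. The list's summed log2 level was 118.2, 94.6 and 123.3, and its median deviation was 0.29, -1.01 and 0.67. Of the 16 markers 5 lay below the chemosensory threshold on array 2 and 0 on the other arrays, and Cdh5, a defining endothelial gene, had 9.14, 6.05 and 9.58. Their part in the values of Adamts5, Adamts1, Timp3, Adam17 and Mmp16 was not tested. Adamts5 lay above both thresholds on array 2 itself, and of the endothelial list Pecam1 (6.73), Emcn (6.75) and Egfl7 (6.75) did so too.

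The perivascular markers moved little, with 12 of 12 called and summed levels of 125.2, 124.7 and 123.4. The sums of the 10 osteoblast markers, 9 of them called, were 90.9, 84.7 and 86.0. This list had a median deviation of 0.27, -0.25 and -0.09, and 7 of the 10 were lowest on array 2. The part of osteoblasts in the values of Adamts5 and Mmp16 was not tested. Of 11 smooth muscle markers 8 (72.7%) were called, and 5 (45.5%) over the other-tissue background. Their median deviation was 0.11, -0.03 and 0.02. By deviation, 2 of the 11 were lowest on array 1, 5 on array 2 and 4 on array 3. Abcc9 (8.36, 7.10 and 9.30) was lowest on array 2, and Rgs5 (8.39, 8.25 and 6.37) on array 3. The part of smooth muscle cells in the values of Adamts5, Timp1 and Timp2 was not tested. The lowest arrays of Timp1 and Timp2 were different from that of Adamts5. Both inhibitor genes were lowest on array 3, with deviations of -1.10 for Timp1 and -0.61 for Timp2, and in 5 of 7 and 6 of 10 probesets. Mmp11, Mmp19 and Mmp9 were highest on array 2, by deviations of 0.61, 0.62 and 0.68.

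**Figure D4:**
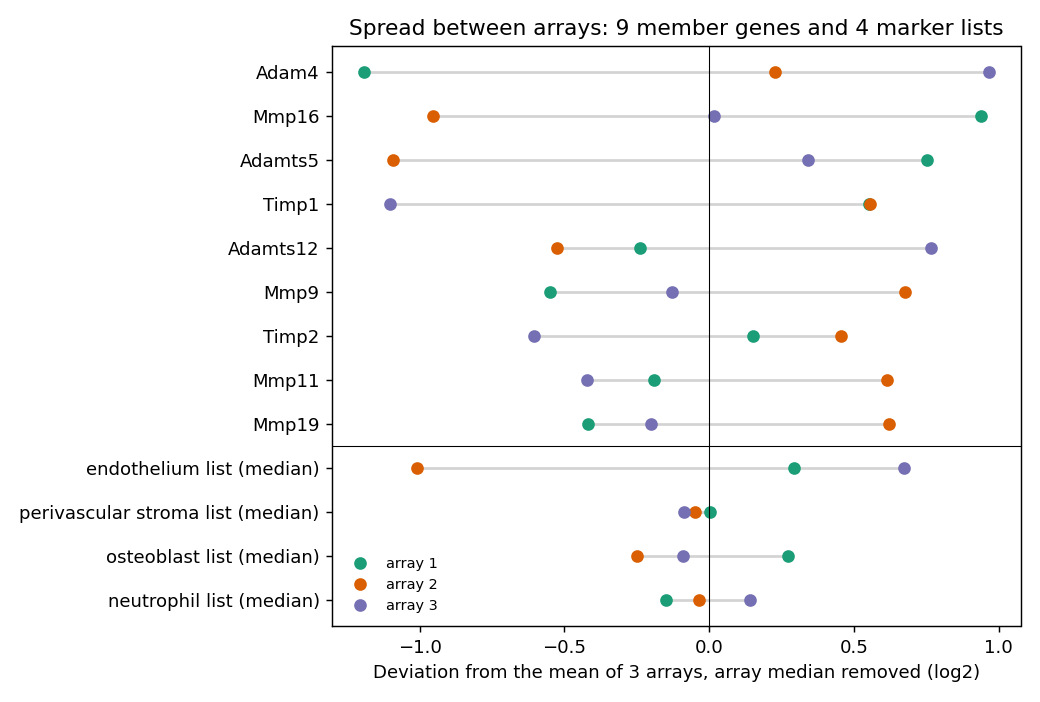
Deviation of each array from the gene's mean over the 3 arrays (x axis, log2, after subtraction of the median deviation of that array) for the 9 members with a range of at least 1, and below the line the median of 4 marker lists. Adamts5 and Mmp16 are lowest on array 2, as the endothelial and osteoblast lists are, while Timp1 and Timp2 are lowest on array 3.

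Genes that act on the same enzymes or substrates were listed by function. Of 16 activators and regulators 12 were called, where 50.6% of all genes were, and 6 (37.5%) over the other-tissue background, where 29.1% of all genes were. They included Bsg, an inducer of MMPs (9.10, 10.10 and 9.11), the endocytic receptor gene Lrp1, which clears MMPs and ADAMTS enzymes (8.50, 9.02 and 8.57), Cd9 (8.97, 7.95 and 8.37) and Furin (7.03, 7.41 and 6.996), whose product removes the propeptide of many members. Tspan14 and Tspan5, which guide ADAM10 through the cell, were called at 7.29 ± 0.55 (SD, n = 3) and 6.62 ± 0.99, while Tspan15 (5.80) and Tspan33 (5.02) were not.

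In the plasminogen system, another route of matrix proteolysis, 1 of 7 genes was called (14.3%, compared with 50.6% of all genes). It was Serpine2, an inhibitor of serine proteases, with 10.85, 11.34 and 10.45. The activator genes Plau (5.49, 5.83 and 6.72; adjusted p = 0.0927, limma) and Plat (5.76 ± 0.39, SD, n = 3) and the receptor gene Plaur (5.19 ± 0.05) were not called. Of 6 cystatin and macroglobulin genes 2 (33.3%) were called, Cst3, an inhibitor of cysteine cathepsins, at 11.64 ± 0.09 and A2m, a broad protease trap, at 6.39 ± 0.25. Serpine2 and Cst3 passed the other-tissue background and A2m did not.

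Other matrix proteases and their helpers gave 10 calls among 19 (52.6%), and 9 over the other-tissue background (47.4%). Of all genes 50.6% and 29.1% were called. Ctsl, a lysosomal cysteine protease gene, had 11.66, 11.41 and 11.85, and Fap, a serine protease gene of activated fibroblasts, had 10.43, 10.43 and 10.15. Pcolce, which enhances removal of the carboxy-terminal procollagen propeptide by the Bmp1 product, had 10.36, 10.59 and 9.81, and Bmp1 had 7.78, 8.35 and 8.08. Signal for genes of both ends of procollagen processing, Adamts2 and Bmp1, was therefore present on every array. Among 21 substrate genes 17 were called, and 10 over the other-tissue background, with Vcam1 at 10.80 ± 0.08 (SD, n = 3), Fbn1 at 10.79 ± 0.04 and Kitl at 10.62 ± 0.27. Of the aggrecanase substrates Acan had 6.22, 5.91 and 6.45 and Vcan 7.48, 6.09 and 6.87, and both were called over the chemosensory background only.

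Promoter composition differed between members with and without a call, as it did over all genes. RefSeq windows were found for 50 members, 22 called and 28 not. The median number of CG pairs in the 250 bases was 16 in called members and 2 in the others, and 17 and 7 in called and uncalled genes over the whole array. At least 10 CG pairs were found in 72.7% of called members and 32.1% of those not called, compared with 78.5% and 41.3% of all genes. AP-1 letters were found in 2 of 22 called members, Mmp13 and Adam19, and in 10 of 28 members without a call. Over all genes AP-1 letters were found in 5.12% of called and 8.92% of uncalled genes, and 7 of the 10 uncalled members that hold them belong to the chromosome 9 run.

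The calls of 19 members held under each of the 9 other settings in which they could be tested. These were Mmp2, Mmp11, Mmp13, Mmp14, Mmp23, Timp2, Timp3, Timp4, Adam9, Adam10, Adam12, Adam15, Adam17, Adam19, Adamts1, Adamts2, Adamts5, Adamts9 and Adamts10, and all of them also passed the other-tissue background. Each of the other 12 lost its call with the 99th percentile of the chemosensory genes as threshold. Of these, Mmp28 was also lost without any 1 array, Mmp17 and Adamts7 without array 3, Timp1 without array 1 and Adam1a without array 2 or array 3.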

How the data were processed

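The deposited values are log2 signals per probeset. Per the submitters' processing notes they came from RMA (background correction, normalisation across arrays and summary of probes) in Affymetrix Expression Console 1.1. How RMA was set and which annotation build it used is not given in the sources used here. The table holds 1256831 probesets, of which 318760 carry 1 gene symbol; 20744 were at 0 on every array, none of them among the 1794 probesets of the members. Symbols were updated through the synonyms of RefSeq GRCm38.p6, which changed 4227 symbols and turned Adam38 into Adam20.

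A gene's value was the median of its probesets. From it the array's threshold was subtracted, and limma 3.58.1 (R 4.3.3) tested whether the mean difference was above 0, one-sided, with a single intercept and over all 18865 genes with Benjamini-Hochberg adjustment; the script was tested on simulated data. No read depth applies, and 3 arrays limit the precision. The members and lists were chosen with earlier results of these data known. Named genes were all TIMPs, all called members, the highest and lowest uncalled member of each group, members with a range of at least 1.5 and, for other lists, called genes with the largest margin; other members and list genes printed were added after their values were seen. Alternatives were the mean over probesets, another percentile, zero probesets left out, at least 8 probesets, a common threshold, symbols not updated, and leaving out each array. Promoter windows came from a RefSeq table of GRCm38.p6.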

Additional observations from a re-analysis of the deposited data

How the results depend on the processing

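No paired analysis was possible because the 3 arrays form 1 group. With the 99th percentile of the chemosensory genes as threshold, 19 members and 3797 genes were called, compared with 31 and 9548; under the 8 other settings the members' count ran from 27 (without array 3) to 35 (mean over probesets). Leaving out 1 array gave 27 to 30. The other-tissue count of 21 ran from 20 to 23. Margins changed sign as follows, and for genes this close to a threshold the higher threshold itself accounts for the 99th percentile values. At the 99th percentile the margins were -0.49 for Mmp15, -0.64 for Mmp17, -0.81 for Mmp16, -0.78 for Mmp28, -0.80 for Mmp7, -0.043 for Timp1, -0.87 for Adam33, -0.95 for Adam11, -0.79 for Adam1a, -0.26 for Adamts4, -1.11 for Adamts8, -0.89 for Adamts14, -0.58 for Adamts7, -0.94 for Adamts13, -0.34 for Adamtsl5, -1.15 for Adamtsl2 and -1.16 for Adamtsl1. With the mean over probesets they were 0.17 for Mmp9, -0.10 for Mmp7 and -0.23 for Adamtsl1. With at least 8 probesets Mmp9 had 0.12 and Mmp10 0.10, and with symbols not updated 0.035 and 0.015. Without array 1 the margins were 0.15 for Mmp9, -0.15 for Mmp16, 0.19 for Adam4, -0.0048 for Adamts8, -0.0045 for Adamtsl2 and -0.13 for Adamtsl1, and without array 3 they were 0.09 for Mmp9 and 0.25 for Mmp10. Over the 3 fits without 1 array the other ends of the ranges were -0.33 for Mmp9, 0.93 for Mmp16, -0.74 for Adam4, 0.23 for Adamts8 and 0.22 for Adamtsl1. Timp1, Timp4 and Mmp7 have 7 probesets each and no value with the minimum of 8. Calls gained under some setting were those of Mmp7, Mmp16, Mmp25, Adam33, Adamts8 and Adamts14; the cause was not tested. Leaving out zero probesets changed no value of a named member.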

Other observations

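Some of the inhibitor genes overlap other genes. In the RefSeq table Timp1 overlaps Syn1, Timp3 overlaps Syn3 and Timp4 overlaps Syn2, the synapsin genes of neurons. Syn1 had 6.12, 6.33 and 6.36 on arrays 1, 2 and 3 and was called above the chemosensory background (adjusted p = 0.00510, limma), but not above the other-tissue background, of which it is itself a member. Syn3 had 4.49, 4.24 and 3.90 and Syn2 5.62, 5.85 and 6.18, and neither was called. Other members that overlap a called gene were Adam17 with Iah1 (8.92, 9.04 and 8.46), Mmp23 with Mib2 (6.41, 6.54 and 6.25), Mmp19 with Tmem198b (6.83, 6.88 and 6.62), Mmp28 with 1700020L24Rik (5.81, 7.997 and 6.83) and Adam4 with Cox16 (8.79, 8.39 and 8.20). Whether probes of one gene of such a pair take up signal of the other was not tested.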
